A study of Mus musculus with 9 samples.

Results

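The axon guidance genes described here are the ligands and receptors of the semaphorin, ephrin, Slit and netrin systems, measured by RNA-seq in the brain of mouse fetuses after early gestational exposure to EtOH. Members were chosen by gene symbol alone, as every locus named for a semaphorin of classes 3 to 7, a plexin, a neuropilin, an ephrin, an Eph receptor, a Slit, a Robo receptor, a netrin or netrin-G, Dcc or an Unc5 receptor. The rule found 71 of 27095 loci, made up of 37 ligands and 34 receptors. The rule itself uses no measured value.

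Wild-type C57BL/6 fetuses (C57BL/6J in the methods) were collected on gestational day 17 and fall into 3 groups of 3. The mothers of control fetuses received vehicle by injection on gestational day 7. The mothers of both exposed groups received EtOH at 2.9 g/kg on the same day. The exposed groups differ in outcome, the EtOH-exposed affected group carrying ocular, craniofacial or brain defects and the EtOH-exposed unaffected group none that were seen. The affected group is therefore defined by phenotype and not by a further treatment, and litters are not named in the labels. The tissue is called fetal brain in the labels and cortex in the methods.

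Growing axons steer by reading cues in their surroundings. Secreted semaphorins bind neuropilins that signal through plexins, membrane-bound semaphorins bind plexins directly, Slits repel axons through Robo receptors, netrins attract through Dcc or repel through Unc5 receptors, and ephrins on one cell face Eph receptor kinases on another. In the developing cortex these systems also steer migrating neurons, shape the corpus callosum and thalamocortical tracts, and several members act in blood vessels.

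Each locus has 1 FPKM value per group (fragments scaled to exon length and to library size, a scale that allows levels of different genes to be compared), combined by the authors over the 3 fetuses of the group. Values of single fetuses were not used here, so no value below carries a replicate error, no difference was tested, and whether a difference exceeds the spread between fetuses was not assessed here. Differences are log2 ratios of FPKM + 0.1 between 2 groups. A locus with a mean FPKM of at least 1 over the groups was kept, and a kept locus is called higher or lower where its log2 ratio reaches 0.3 (1.23-fold) in either direction. Because the tissue is a mixture of cells, fewer cells of a type and less RNA per cell cannot be told apart. The 3 comparisons share groups, so they are not independent of each other.

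Of the 71 members, 62 were kept (33 ligands and 29 receptors) among 15548 kept loci. The 9 members below the filter were the ligands Sema3b, Sema3d, Sema3g and Ntn5 and the receptors Plxnb3, Epha1, Epha10, Epha2 and Robo3. Sema3d, a secreted semaphorin just under the filter, was at 1.02 FPKM in control, 0.708 in unaffected and 1.07 in affected fetuses. Robo3, which commissural axons of the hindbrain and spinal cord use at the midline, was at 0.0614 FPKM in control fetuses, 0.168 in unaffected and 0.0955 in affected fetuses.

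Markers of the tissue bear on the label. All 11 of 11 genes of the cortical projection neuron list were kept, whereas 0 of 11 found genes of a midbrain, cerebellum and hindbrain list were kept, all of them under 0.5 FPKM in every group. Genes of ventral telencephalon (13 of 13 kept) and thalamus (5 of 6 kept) were present too. Summed FPKM of the ventral telencephalon list was 217 in control fetuses, 258 in unaffected and 236 in affected fetuses, that of the thalamus list 59.8, 66.1 and 50.2, and that of the 4 genes found of an erythroid list 5378, 6953 and 3297. At loci under 0.3 FPKM, where values step by single fragments, the 9 most frequent ratios of affected to control values were 0.616 to 0.885 and those of affected to unaffected values 0.705 to 0.966. For unaffected over control values they were 0.831 to 1.85, with 8 of 9 below 1. These ratios were shared by 184, 185 and 215 of the low loci in the order given, and the part of library depth in the results was not tested.

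The 3 members with the highest log2 ratio of affected to control were the receptors Robo4, Plxnd1 and Plxna2, the ligand Sema5a being next to Plxna2, and the 2 with the lowest were the ligands Efna1 and Sema3c. The promoters of these 5 are shown here so that the genes behind the results can be seen at the sequence level. Sequences are the 250 bases before the annotated start in RefSeq on GRCm38.p6 (the same assembly as mm10), read 5′ to 3′ on the gene's strand. Capitals mark the GC box (GGGCGG), a motif of CpG-rich promoters, the E box CAGCTG and the CCAAT box (CCAAT), each searched on both strands. The windows are Plxnd1 at chr6:115995006-115995255 on the minus strand, Plxna2 at chr1:194619579-194619828 on the plus strand, Robo4 at chr9:37401722-37401971 on the plus strand, Efna1 at chr3:89280952-89281201 on the minus strand and Sema3c at chr5:17574566-17574815 on the plus strand.
Plxnd1: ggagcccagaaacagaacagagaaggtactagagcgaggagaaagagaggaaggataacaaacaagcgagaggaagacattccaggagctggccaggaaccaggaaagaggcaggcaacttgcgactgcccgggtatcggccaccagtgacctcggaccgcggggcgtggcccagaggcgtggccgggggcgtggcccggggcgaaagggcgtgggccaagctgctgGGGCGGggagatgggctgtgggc
Plxna2: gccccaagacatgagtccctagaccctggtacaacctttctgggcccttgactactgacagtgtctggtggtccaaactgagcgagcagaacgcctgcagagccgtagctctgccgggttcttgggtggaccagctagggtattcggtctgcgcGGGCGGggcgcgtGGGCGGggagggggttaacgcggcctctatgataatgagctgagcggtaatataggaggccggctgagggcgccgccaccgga
Robo4: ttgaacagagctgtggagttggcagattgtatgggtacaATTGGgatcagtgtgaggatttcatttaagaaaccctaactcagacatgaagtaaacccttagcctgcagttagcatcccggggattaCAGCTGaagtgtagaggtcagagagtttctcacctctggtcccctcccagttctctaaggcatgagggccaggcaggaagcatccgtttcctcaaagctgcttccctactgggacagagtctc
Efna1: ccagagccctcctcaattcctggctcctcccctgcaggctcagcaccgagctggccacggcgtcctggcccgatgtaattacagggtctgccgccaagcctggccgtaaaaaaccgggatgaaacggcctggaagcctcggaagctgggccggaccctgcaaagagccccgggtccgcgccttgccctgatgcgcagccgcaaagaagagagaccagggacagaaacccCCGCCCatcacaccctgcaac
Sema3c: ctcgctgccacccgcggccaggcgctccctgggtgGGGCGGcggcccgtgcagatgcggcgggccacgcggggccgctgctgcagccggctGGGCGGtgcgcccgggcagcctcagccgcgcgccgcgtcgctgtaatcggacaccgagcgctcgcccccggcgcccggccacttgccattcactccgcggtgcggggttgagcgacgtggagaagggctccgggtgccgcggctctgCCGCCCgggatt
A GC box stood in 4 of these 5 windows, with 1 in Plxnd1, 2 in Plxna2, 1 in Efna1 and 3 in Sema3c, and in none of the Robo4 window, which holds 1 E box and 1 CCAAT box instead. Genes with higher and with lower values in affected offspring thus both carry it. Robo4, a receptor known from blood vessel endothelium, also has the most CpG-poor of the 5 windows, with 2 CpG dinucleotides (observed over expected 0.13) against 39 in Sema3c (1.02). Promoter windows were found for 61 of the 71 members. Of their 77 windows, 54 (70.1%) held a GC box, against 32.7% of all 32851 windows, 2 (2.6%) held the TATA box TATAAA against 12.4%, 7 (9.09%) the ETS core CCGGAA against 12.03%, 12 (15.6%) the E box against 13.0% and 21 (27.3%) the CCAAT box against 33.85%. These matches are descriptions of sequence and were not related to the expression values.

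Levels were ordered by family before any comparison of groups. The 5 most abundant ligands were Efnb2, Efnb3, Efnb1, Efna2 and Sema4c. Efnb2, a transmembrane ephrin of neurons and arteries, was at 71.0 FPKM in control fetuses, 66.6 in unaffected and 77.6 in affected fetuses, the highest value of any member. The other 2 transmembrane ephrins followed, Efnb3 at 51.9, 53.2 and 55.9 FPKM and Efnb1 at 35.7, 36.5 and 43.7 FPKM in the same order of groups. Sema4c, a membrane-bound semaphorin that binds plexin-B receptors, was at 23.6, 22.5 and 26.9 FPKM. The 5 most abundant receptors were Robo1, Epha5, Robo2, Epha4 and Nrp1. Robo1, the Slit receptor of callosal and thalamocortical axons, was at 35.2 FPKM in control fetuses, 29.6 in unaffected and 45.8 in affected fetuses. Robo2 was at 30.8, 26.4 and 36.3 FPKM and Epha5, a receptor of ephrin-A ligands, at 32.3, 30.6 and 36.3 FPKM. The abundant receptors thus all had their highest value in affected and their lowest in unaffected fetuses.

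**Figure D1:**
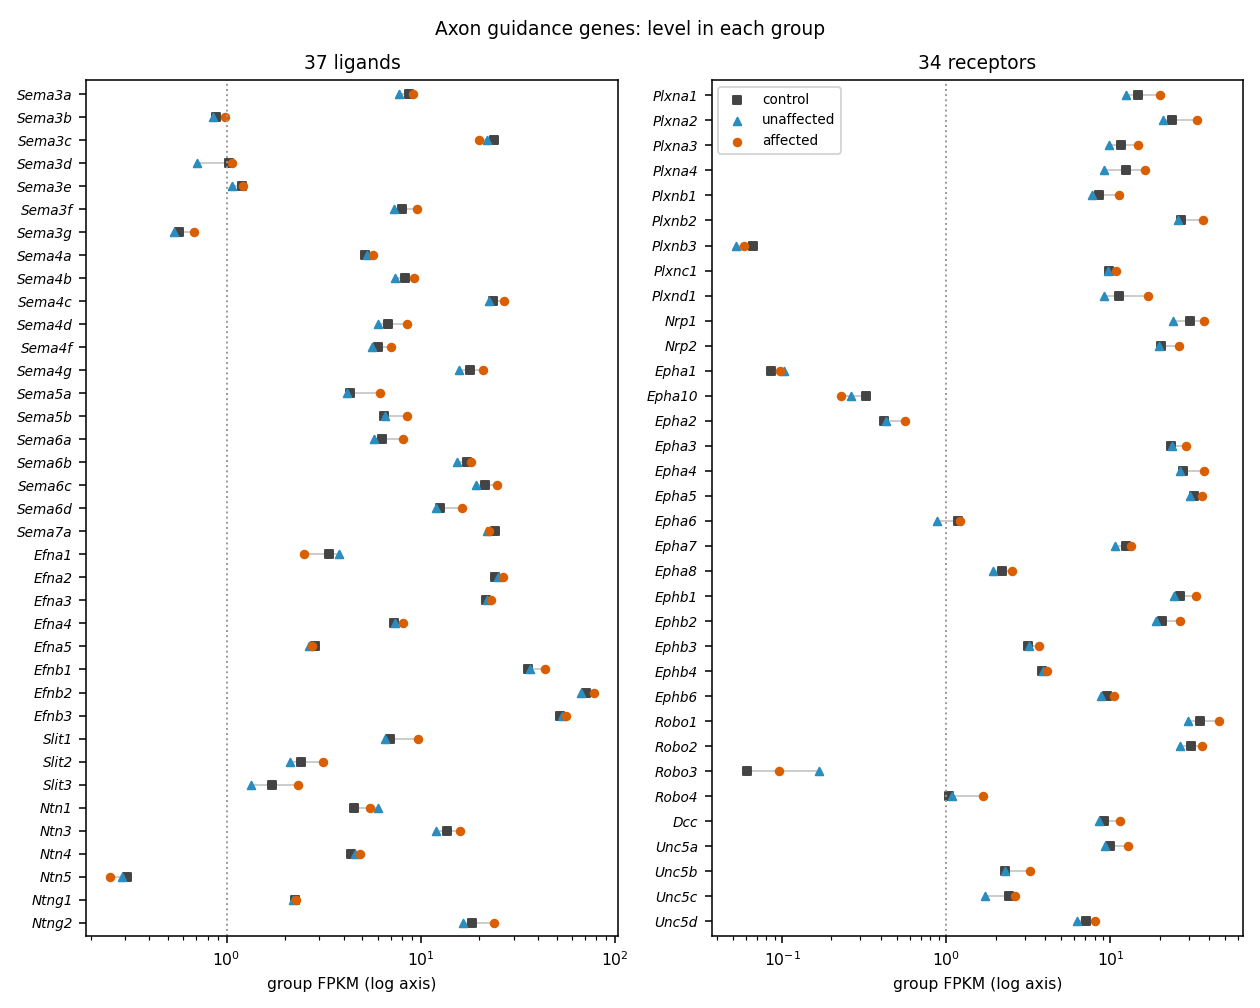
Group FPKM (log axis) of the 37 ligands (left) and 34 receptors (right), with 1 point per group (squares control, triangles unaffected, circles affected) and no error, since values are per group; the dotted line is the filter at a mean FPKM of 1. The affected value is the highest of the 3 for 57 of the 62 kept members, and Efnb2 stands highest of all.

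Summed over members, the level of the receptors was 431 FPKM in control fetuses, 387 in unaffected and 543 in affected fetuses. The ligands summed to 477, 456 and 533 FPKM. The summed level of receptors per ligand was therefore 0.903 in control fetuses, 0.849 in unaffected and 1.02 in affected fetuses, so the receptor sum exceeded the ligand sum in the affected group alone. These sums were not corrected for transcript length, which is longer in receptors than in ligands.

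Affected offspring were compared with control offspring to describe the guidance genes in exposed fetuses with defects. The log2 ratio was above 0 in 58 of the 62 kept members. Of the 62 kept members, 26 were called higher (41.9%) and 1 lower (1.61%), where 14.0% of all kept loci were called higher and 12.8% lower. The called members were 17 of 29 receptors and 9 of 33 ligands higher, and the ligand Efna1 lower. All 29 kept receptors had a log2 ratio above 0, against 52.9% of all loci. The median log2 ratio was 0.32 for receptors, 0.19 for ligands and 0.02 for all kept loci.

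These differences went along with the length of the transcript, which differs between receptors and ligands. Across 12559 kept loci with an annotated length, the log2 ratio of affected to control correlated with the length of the longest transcript (Spearman's rho 0.51, across genes, which are not independent replicates and share the same libraries). The median longest transcript was 3432 nt for all loci, 4482 nt for kept ligands, 6746 nt for kept receptors and 7976 nt for kept plexins. In the fifth of loci with the longest transcripts (over 5361 nt), 27.8% of all loci were called higher, beside 14 of 20 receptors and 5 of 10 ligands. Among loci with transcripts of 3957 to 5361 nt these were 10.8% of all, 3 of 6 receptors and 3 of 9 ligands.

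With a running median over loci ordered by length subtracted, 7 members were called higher and 1 lower, where 5.14% of all loci with a length were higher and 8.27% lower. The median was then 0.15 for receptors and 0.12 for ligands, so most of the gap between receptors and ligands was no longer present. Of the 29 receptors, 23 remained above 0. The 7 members were the receptors Robo4, Plxnd1, Unc5b and Unc5a and the ligands Slit1, Slit3 and Ntng2, and the member called lower was Sema3c. The part of library depth, RNA quality or fragment selection in this length trend was not tested.

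**Figure D2:**
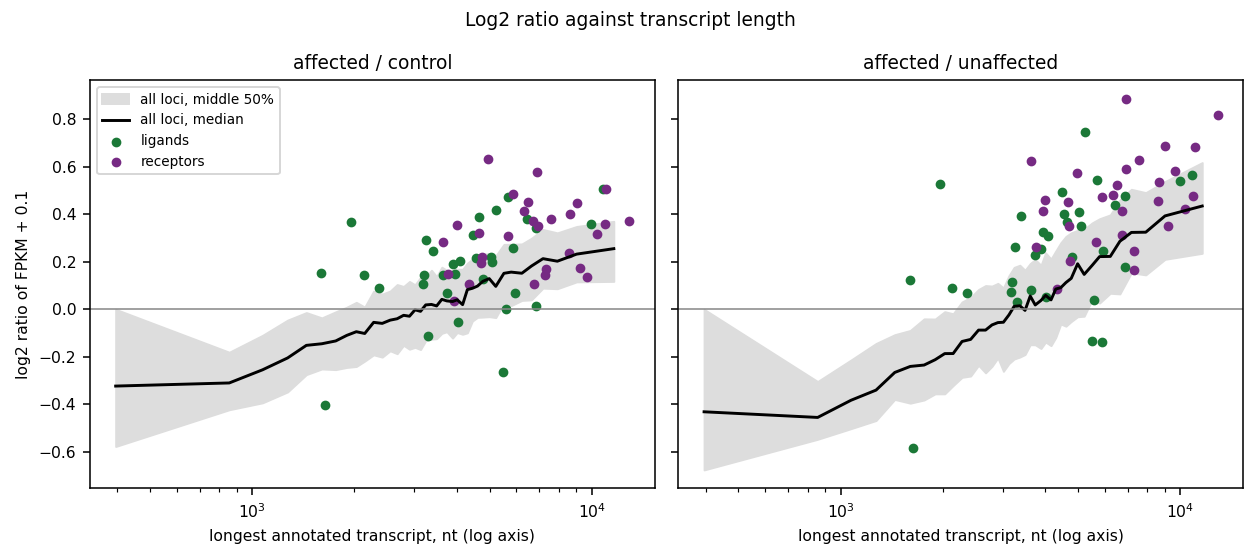
Log2 ratio of FPKM + 0.1 against the longest annotated transcript in nt (log axis) for affected against control (left) and affected against unaffected (right), with 1 point per kept ligand or receptor; the line and band are the median and the middle 50% of all loci in 40 bins of length. The median of all loci climbs with length in both panels, and most receptors lie at the long end, above it.

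The plexins, which transmit semaphorin signals into the cell, had the largest difference of the larger receptor families. All 8 kept plexins had log2 ratios above 0 and 7 were called higher, with a median of 0.42, where 14.0% of all kept loci and 27.8% of those in the fifth with the longest transcripts were called higher. Plxnd1 (chr6:115954811-115995005), the receptor for class 3 and class 4 semaphorins in vessels and in subsets of neurons, was at 11.3 FPKM in control fetuses, 9.13 in unaffected and 17.0 in affected fetuses, a log2 ratio of 0.58. Plxna2 (chr1:194617555-194816868), a partner of neuropilins and a receptor for class 6 semaphorins, was at 23.6, 20.9 and 33.6 FPKM in the same order, a log2 ratio of 0.51. The 250 bases printed for Plxna2 lie inside this locus, whose assembled start is upstream of the RefSeq start.

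The other kept plexins showed the same order of groups. Plxna1, another neuropilin partner, was at 14.7 FPKM in control fetuses, 12.4 in unaffected and 20.0 in affected fetuses, and Plxnb2, a class 4 semaphorin receptor of neuronal progenitors, at 26.9, 25.6 and 36.8 FPKM. Their log2 ratios to control were both 0.45. Plxnc1, the receptor for Sema7a, had the same order and a smaller difference, at 9.80, 9.67 and 10.8 FPKM with a log2 ratio of 0.15, and was not called. Less the length trend, the plexin median was 0.20 and only Plxnd1 (0.37) was still called. Plxnc1 was then at -0.07.

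Neuropilins are the binding subunits for secreted semaphorins. Nrp1 was at 30.3 FPKM in control fetuses, 23.9 in unaffected and 36.9 in affected fetuses, and Nrp2 at 20.3, 19.7 and 26.3 FPKM. Nrp2 was called higher against control (0.37) and Nrp1, at 0.28, was not. The Nrp1 locus carries a joined name with the microRNA gene Mir1903.

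Their ligands, the class 3 semaphorins, were not called in either direction. Sema3c (chr5:17574816-17730267), a secreted cue of callosal axons, was at 23.9 FPKM in control fetuses, 21.9 in unaffected and 19.9 in affected fetuses, a log2 ratio of -0.26. It is 1 of 2 kept members, with Efna1, whose affected value was the lowest of the groups. Its ratio less the length trend was -0.40, which passes 0.3. Sema3a, the founding repellent of the class, differed little, at 8.71, 7.71 and 9.14 FPKM.

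The semaphorins called higher against control were all held in the membrane, as are all 17 kept semaphorins but the 4 of class 3. Sema5a (chr15:32244813-32696341), a transmembrane semaphorin with thrombospondin repeats, was at 4.33 FPKM in control fetuses, 4.15 in unaffected and 6.19 in affected fetuses, a log2 ratio of 0.51. Sema5b was also called (0.39), as were Sema6d (0.38), Sema6a (0.34) and Sema4d (0.31), the last not called with a pseudocount of 1 (0.28). The assembled Sema6d locus covers 0.10 of its annotated gene, that of Sema3a 0.43 and that of Robo1 0.66, each at its downstream end. Sema7a, which is tethered by a lipid anchor, was at 24.2, 21.9 and 22.4 FPKM with a log2 ratio of -0.11. In all, 5 of 17 kept semaphorins were called higher (29.4%) and none lower against control, beside 14.0% and 12.8% of all kept loci, with a median of 0.20. Once length was accounted for, none was called higher and 1 (Sema3c) lower, beside 5.14% and 8.27%.

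Slits and Robo receptors stood higher on both sides of the pair. All 3 Slits were called higher, of which Slit3 (0.29) and Slit2 (0.27) were not called with a pseudocount of 1. Of all kept loci, 14.0% were called higher, and 27.8% in the fifth with the longest transcripts, where Slit1 and Slit2 lie. Slit1 (chr19:41600257-41743856), the most abundant of them, was at 6.90 FPKM in control fetuses, 6.56 in unaffected and 9.62 in affected fetuses, a log2 ratio of 0.47. Slit2 was at 2.42, 2.12 and 3.13 FPKM (0.36) and Slit3 at 1.71, 1.34 and 2.32 FPKM (0.42). Slit1 (0.32) and Slit3 (0.31) were still called with the length trend removed, beside 5.14% of all loci. Slit2, whose longest transcript is 9960 nt, was not (0.12).

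Of the Robo receptors, Robo1 (0.38) and Robo4 (0.63) were called and Robo2, at 0.24, was not. Robo4 (chr9:37402046-37414093) had the largest log2 ratio of any member, at a low level of 1.04 FPKM in control fetuses, 1.09 in unaffected and 1.66 in affected fetuses. At this level the ratio rests on the pseudocount. With a pseudocount of 1 in place of 0.1, Robo4 was at 0.39, below 7 members, Plxnd1 (0.54), Plxna2 (0.49), Plxnb2 (0.44), Sema5a (0.43), Slit1 (0.43), Plxna1 (0.42) and Epha4 (0.40). With the length trend removed and a pseudocount of 0.1 it was at 0.50, again the largest. Its neighbour Robo3 lies on the opposite strand, with a gap of 1.95 kb between the loci, and was listed near 0 in every group.

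Robo4 is a gene of endothelium, and genes of vessels were read beside it. The 12 of 12 kept endothelial markers summed to 130 FPKM in control fetuses, 129 in unaffected and 132 in affected fetuses. Of these, 3 (25%) were called higher and none lower against control, beside 14.0% and 12.8% of all kept loci, and 5 higher and 1 lower against unaffected offspring, beside 22.0% and 19.9%. Less the length trend, 2 (16.7%) were higher against control, beside 5.14% of all loci. The markers called against control included Cdh5 (7.36, 6.59 and 9.83 FPKM) and Kdr (5.02, 4.76 and 7.09 FPKM), whereas Cldn5 was at 36.9, 38.4 and 33.9 FPKM. Among 6 kept guidance genes known from vessels, Robo4, Plxnd1 and Unc5b were called higher, Efna1 lower, and Ephb4 (0.11) and Efnb2 (0.13) neither. The part of vessel content in these values was not tested.

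The receptors of netrin had log2 ratios above 0 against control as computed. Dcc, the attractive netrin receptor, was at 9.15 FPKM in control fetuses, 8.50 in unaffected and 11.4 in affected fetuses (0.32), and was just short of a call with a pseudocount of 1 (0.29) or after centring. Unc5b (chr10:60762593-60831581), a repulsive netrin receptor also known from vessels, was at 2.27, 2.29 and 3.22 FPKM (0.49), and Unc5a at 9.95, 9.22 and 12.7 FPKM (0.35). Unc5c (0.13) and Unc5d (0.18) were not called. As computed, 3 of these 5 receptors were thus called higher, beside 14.0% of all kept loci. Unc5a and Unc5b were, less the length trend, the 2 of these 5 still called, beside 5.14% of all loci. Dcc was then at 0.07, and Unc5c (-0.11) and Unc5d (-0.06) turned below 0.

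Netrins themselves were not called against control. Ntn1, the ligand of Dcc, was at 4.54 FPKM in control fetuses, 6.01 in unaffected and 5.45 in affected fetuses, so both exposed groups stood above control. The value at Ntn3 (13.6, 11.9 and 15.9 FPKM) cannot be read as Ntn3 alone, because its locus is joined with Tbc1d24. Of the netrin-Gs, lipid-anchored relatives that do not bind Dcc, Ntng1 did not differ (2.26 FPKM in both control and affected fetuses) and Ntng2 was called higher (18.4, 16.5 and 23.8 FPKM, 0.37). The Ntng2 locus is joined with 6530402F18Rik and its longest transcript in the annotation is short (1957 nt), which bears on its ratio with the length trend removed (0.47).

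Of the ephrins, none was called higher and 1 of 8 (12.5%) lower, beside 14.0% and 12.8% of all kept loci, with a median log2 ratio of 0.12, whereas all 11 kept Eph receptors stood above 0 and 4 were called higher, with a median of 0.19. Epha4, a receptor for ephrins of both classes, was at 27.8 FPKM in control fetuses, 26.5 in unaffected and 37.0 in affected fetuses (0.41), and Ephb2 at 20.5, 18.9 and 26.4 FPKM (0.36). Ephb1 (0.32) and Epha3 (0.31) were the other called Eph receptors, of which Epha3 fell just short with a pseudocount of 1 or after centring on the median of all loci (0.29). Ephrin transcripts are short (1599 to 4793 nt) and those of the Eph receptors longer (3762 to 10902 nt). Less the length trend the medians were 0.13 for ephrins and 0.11 for Eph receptors, and no gene of either family was called.

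Efna1 was the member with the lowest log2 ratio. Efna1 (chr3:89271730-89280951), a lipid-anchored ephrin that is also expressed in endothelium, was at 3.35 FPKM in control fetuses, 3.81 in unaffected and 2.51 in affected fetuses, a log2 ratio of -0.40. Its longest transcript is 1632 nt, and with the length trend removed the ratio was -0.26, under the threshold. Efna3 and Efna4 lie next to it on the same strand of chromosome 3, with gaps of 33.0 and 10.5 kb between the loci, and did not share its order of groups. Efna3 was at 21.6, 21.9 and 23.0 FPKM and Efna4 at 7.25, 7.40 and 8.06 FPKM. The remaining ephrins with log2 ratios near 0 included Efna5 (-0.05). The Efna2 value (24.1, 25.0 and 26.6 FPKM) comes from an assembled locus of 672 kb, 63.9 times its annotated gene, and is uncertain.

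**Figure D3:**
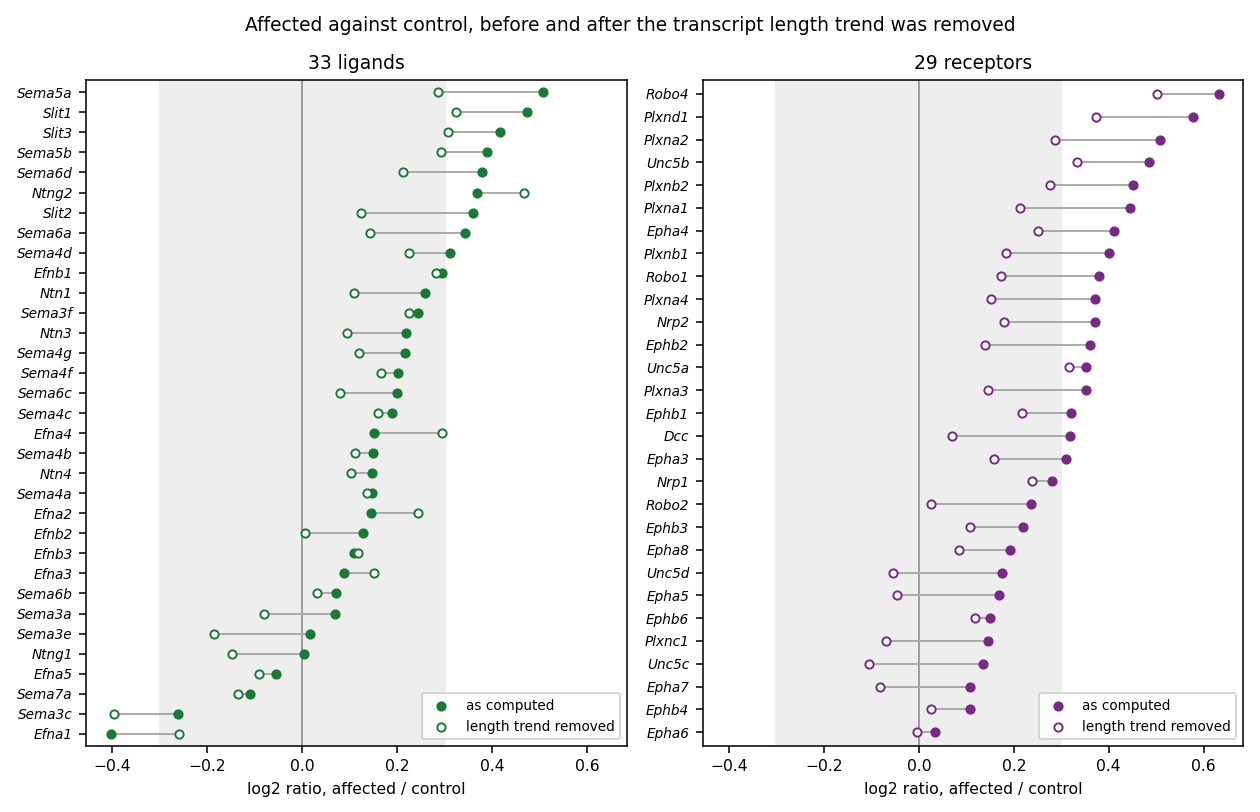
Log2 ratio of affected to control for the 33 kept ligands (left) and 29 kept receptors (right), as computed (filled) and with the transcript length trend removed (open); the grey band spans -0.3 to 0.3, between the calls. Filled points lie outside the band for 26 members on the high side and Efna1 on the low side, and open points for 7 members on the high side and Sema3c on the low side.

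Affected offspring were next set against unaffected offspring, which had the same exposure. The differences were larger here. Of the 62 kept members, 38 were called higher (61.3%) and 1 lower (Efna1), where 22.0% of all kept loci were called higher and 19.9% lower. The members called higher were 23 of 29 receptors and 15 of 33 ligands, with medians of 0.46 and 0.26 beside 0.01 for all loci. All 29 receptors were again above 0, against 51.2% of all kept loci. With the trend in locus span removed in place of that in transcript length, 15 of 29 receptors and 17 of 33 ligands were called higher. The share of all kept loci called higher was then 19.3%.

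The length trend was steeper in this comparison (Spearman's rho 0.59 across 12559 loci). In the fifth of loci with the longest transcripts, 49.7% of all loci were called higher, beside 17 of 20 receptors and 5 of 10 ligands. Among loci with transcripts of 3957 to 5361 nt, 23.4% were called higher, beside 4 of 6 receptors and 7 of 9 ligands. With the trend removed, 15 members were higher and 3 lower (Efna1, Sema3c and Ntn1), where 10.9% of all loci were higher and 12.6% lower, and the medians were 0.24 for receptors and 0.19 for ligands.

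The 5 largest ratios to unaffected offspring were those of Plxnd1 (0.89), Plxna4 (0.82), Slit3 (0.75), Plxna1 (0.69) and Plxna2 (0.68), so 4 of the 5 were plexins. Plxna4 (chr6:32144274-32588192), a neuropilin partner in Sema3a signalling, was at 12.5 FPKM in control fetuses, 9.11 in unaffected and 16.1 in affected fetuses. All 3 values of Plxna4 lie apart, with the unaffected group lowest. With the length trend removed, Plxnd1 (0.57), Plxna4 (0.40) and Plxna1 (0.31) were still called and Plxna2 (0.29) was not. Nrp1, at 0.62 as computed, kept 0.58 with the trend removed, its longest transcript being 3645 nt.

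At the low end stood Efna1 (-0.58), Ntn1 (-0.14), Sema3c (-0.14), Sema7a (0.03) and Ntng1 (0.04). Efna1 was called under both treatments of length (-0.34 with the trend removed). Ntn1 and Sema3c passed 0.3 only with the trend removed, at -0.36 and -0.31. Of the netrin receptors, all 5 were called higher as computed, and 1 (Unc5a, 0.42) with the trend removed. The shares of all loci were 22.0% and 10.9%. Dcc, Unc5b, Unc5c and Unc5d lie in the fifth with the longest transcripts, where 49.7% of all loci were called higher as computed. Unc5d went from 0.35 to -0.02.

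**Figure D4:**
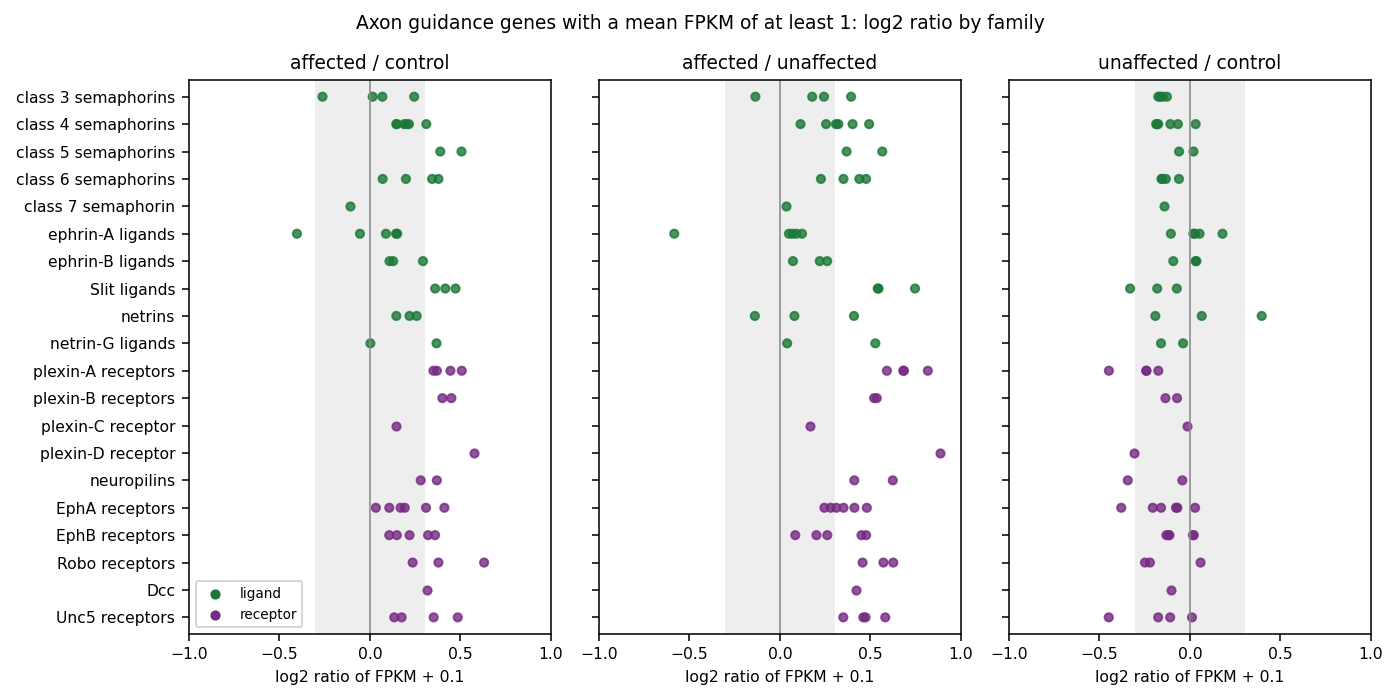
Log2 ratio of FPKM + 0.1 for the 62 kept members by family, in the comparisons affected against control, affected against unaffected and unaffected against control; each point is 1 gene, ligands in green and receptors in purple, and the grey band spans -0.3 to 0.3. Plexin, Slit and Robo points lie to the right in the first 2 panels and mostly to the left of 0 in the third, and the ephrin points lie within the band except Efna1, with Efnb1 near its edge in the first 2 panels.

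Unaffected and control offspring differed less. Of the 62 kept members, 1 was called higher (Ntn1, 0.40) and 6 lower, where 6.01% of all kept loci were called higher and 7.60% lower. The 6 were the receptors Unc5c (-0.45), Plxna4 (-0.45), Epha6 (-0.38), Nrp1 (-0.34) and Plxnd1 (-0.31) and the ligand Slit3 (-0.33). With a pseudocount of 1, Plxnd1 (-0.28), Epha6 (-0.21) and Slit3 (-0.21) were not called. The median was -0.13 for receptors and -0.10 for ligands. Most members stood below control, 47 of 62 in all, beside 7506 of 15548 kept loci. Across all loci the correlation with transcript length had the opposite sign to that of the affected comparisons (Spearman's rho -0.49). With the length trend removed, 23 of 62 members instead of 15 stood above 0, and the medians were -0.03 for receptors and -0.06 for ligands. Ntn1 (0.47), Epha6 (-0.38) and Nrp1 (-0.34) were then called, where 2.32% of all loci were higher and 1.84% lower.

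Unc5c, a repulsive netrin receptor, was at 2.40 FPKM in control fetuses, 1.73 in unaffected and 2.64 in affected fetuses. Epha6 was at 1.18, 0.883 and 1.21 FPKM, close to the filter. For both, the control and affected values lay close together and the unaffected value below them. Beside Ntn1, the highest ratios were small, those of Efna1 (0.18), the vessel and basement membrane netrin Ntn4 (0.07), Robo4 (0.06) and Efna2 (0.05).

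The order of the 3 groups was shared by most members. It ran unaffected, control, affected from low to high in 44 of 62 members (71.0%), made up of 24 of 29 receptors and 20 of 33 ligands, where 32.2% of all kept loci had this order. The affected value was highest in 57 members (91.9%) against 44.9% of all loci. The exceptions were Efna1, Sema3c, Efna5, Sema7a and Ntn1. These shares describe the same 3 group values as the comparisons above and carry the same length trend.

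Set out by system and as computed, the sum of the receptor side differed more than the ligand side in 3 of 4 systems. Semaphorins summed to 205 FPKM in control and 225 in affected fetuses (9.87% more), and plexins to 119 and 160 FPKM (35.0% more). Ephrins summed to 218 and 240 FPKM (10.4% more), and Eph receptors to 163 and 198 FPKM (21.2% more). Netrins summed to 22.9 and 26.4 FPKM (15.7% more), and Dcc with the Unc5 receptors to 30.9 and 38.0 FPKM (23.3% more). The netrin sum includes the locus of Ntn3 joined with Tbc1d24, at 13.6 and 15.9 FPKM, which cannot be read as Ntn3 alone. In the Slit system the ligands differed more, with 11.0 and 15.1 FPKM (36.6% more) against 67.1 and 83.8 FPKM (25.0% more) for the Robo receptors. These sums were not corrected for transcript length. Less the length trend, the median log2 ratio to control was 0.14 for semaphorins and 0.20 for plexins, 0.13 for ephrins and 0.11 for Eph receptors, 0.10 for netrins and 0.07 for Dcc with the Unc5 receptors, and 0.31 for Slits and 0.17 for Robo receptors. The receptor side was then the larger in the semaphorin system alone.

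**Figure D5:**
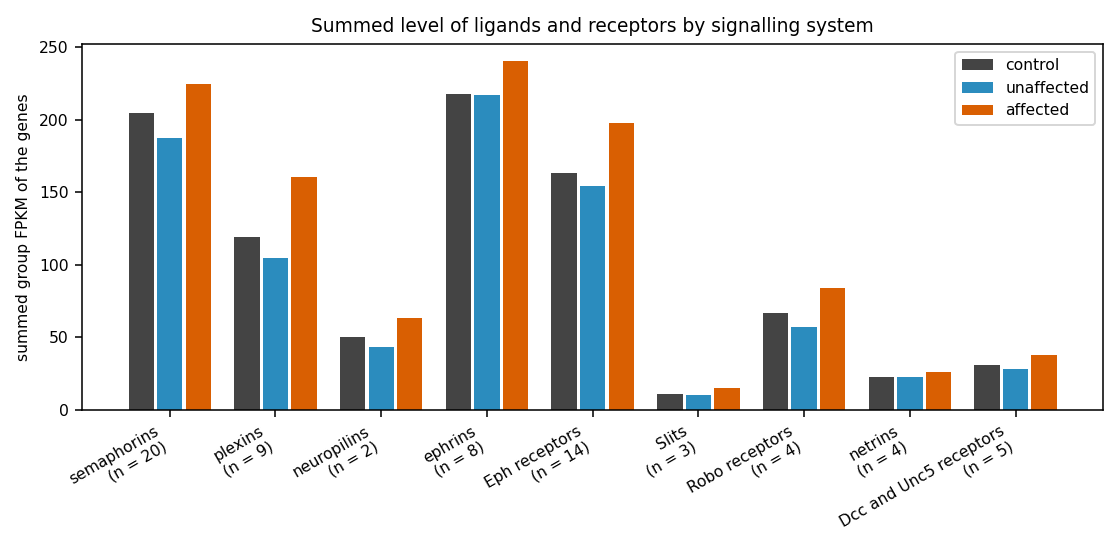
Summed group FPKM of each family in control, unaffected and affected offspring, as bars from 0 without error, since values are per group; n is the number of genes in each sum. The affected bar is the highest in every family, and the gap is widest in height for the plexins, 119 in control and 160 in affected offspring.

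Genes that act downstream of the receptors were read from a list of 56 guidance effectors, of which 55 were found and kept. Against control, 19 (34.5%) were higher and 1 lower, with a median of 0.18, where 14.0% of all kept loci were higher and 12.8% lower. Against unaffected offspring 24 (43.6%) were higher and 1 lower, with a median of 0.27, where 22.0% of all kept loci were higher and 19.9% lower. The largest ratios to control were those of Srgap1 (0.52) and Srgap3 (0.42), GTPase-activating proteins that bind Robo receptors, and Dpysl5 (0.40), a collapsin response mediator. The lowest were those of the adaptor Nck1 (-0.35), the kinase Cdk5 (-0.28) and the GTPase Cdc42 (-0.25). Against unaffected offspring the largest were Met (0.81), a receptor kinase that associates with plexins, Srgap1 (0.79) and Ablim1 (0.76), an actin-binding protein of netrin signalling, and the lowest Nck1 (-0.47), Cdk5 (-0.29) and Cdc42 (-0.27). With the length trend removed, 53 effectors were read, without Chn2 and Kalrn, whose loci carry joined names. Against control 2 were higher (3.77%) and 1 lower, under the 5.14% of all loci that were higher. Against unaffected offspring 11 were higher (20.8%) and 2 lower, where 10.9% of all loci were higher.

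Guidance cues and receptors outside the 4 systems were read in the same way. Of 32 kept genes of 36 found, 12 (37.5%) were higher and 1 lower against control, beside 14.0% and 12.8% of all kept loci, and 19 (59.4%) higher and 2 lower against unaffected offspring, beside 22.0% and 19.9%. Celsr1, a long cadherin of planar polarity, was at 4.33 FPKM in control fetuses, 3.95 in unaffected and 7.89 in affected fetuses (0.85 against control), and Celsr2 at 10.7, 8.31 and 15.9 FPKM (0.57). Cdon, a hedgehog co-receptor, stood at 0.49. The lowest were the chemokine receptors Cxcr4 (44.1, 49.7 and 34.2 FPKM, -0.37) and Ackr3 (-0.28) and their ligand Cxcl12 (-0.04), which guide migrating interneurons. Against unaffected offspring the ends of the list were Celsr1 (0.98), Celsr2 (0.93) and Celsr3 (0.73), and Cxcr4 (-0.54), Ackr3 (-0.51) and Cxcl12 (-0.06). Once length was accounted for, 31 genes were read, without Ackr3, which is listed under its older name Cxcr7. Of these, 5 (16.1%) were higher and none lower against control, beside 5.14% of all loci higher. Against unaffected offspring 9 (29.0%) were higher and 1 lower, beside 10.9% of all loci higher.

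Marker lists of cortical cells were read beside these values. The cortical projection neuron list summed to 1043 FPKM in control fetuses, 930 in unaffected and 1214 in affected fetuses, with 7 of 11 genes higher against control and 9 of 11 against unaffected offspring, beside 14.0% and 22.0% of all kept loci. Less the length trend these were 5 and 8 of 11, beside 5.14% and 10.9%. The cortical progenitor list summed to 2493, 2650 and 1896 FPKM, a sum made up mostly of Fabp7 (2015, 2151 and 1352 FPKM). Of its 9 genes, 3 were higher and 2 lower against control, 6 had log2 ratios above 0 and the median was 0.21, beside 14.0% higher and 12.8% lower among all kept loci. Against unaffected offspring 1 was higher and 3 lower with a median of -0.05, beside 22.0% and 19.9%. The part of these cell populations in the values of the guidance genes was not tested.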

How the data were processed

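RNA from 9 fetuses (3 per group) was sequenced by the authors with the TruSeq RNA kit as 50 bp paired-end reads. Reads were aligned to mm10 (STAR as well as Bowtie and TopHat are named in the methods, and the processing notes name Bowtie2 2.2.4.0), and the Cufflinks suite gave the deposited FPKM, 1 value per group and locus over the 3 fetuses. Columns of single fetuses numbered 0, and depth per library is unknown apart from the steps of low values. The deposited table also holds the authors' fold changes, p-values and q-values, which were not used.

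Of 27095 loci, 3871 have no name and 351 joined names. Log2 ratios were computed with Python 3.11.15 and pandas 2.3.3 from FPKM + 0.1, after a filter at a mean FPKM of 1. Transcript lengths came from GENCODE M21, as the longest transcript of a gene, and were found for 12559 of 15548 kept loci (80.8%) and all 62 kept members. The length trend, a running median over loci ordered by length with a straight line at each end, was tested on simulated data. Locus coordinates are those of the table on mm10, counted from 1. Promoters came from RefSeq, matched by symbol.

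All 71 members may be named. Described in full are the 5 members with the highest and the 5 with the lowest ratio in each comparison, the 5 most abundant ligands and receptors, and the 3 highest and 3 lowest genes of each pathway list. Other genes named as examples of a family were chosen after their values were seen. The family of genes and the gene lists were taken up with earlier results of these data known, although the rule that finds the members reads symbols alone. Alternatives were a pseudocount of 1, no filter, a mean FPKM of at least 5, centring, a threshold of 0.5, removal of joined loci, removal of the length trend and, added after seeing the data, removal of a trend with locus span.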

Additional observations from a re-analysis of the deposited data

How the results depend on the processing

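No paired analysis was possible because the table holds 1 value per group, and leaving out single fetuses could not be run for the same reason. With the transcript length trend removed, the members higher in affected than in control offspring were 7 instead of 26, and against unaffected offspring 15 instead of 38, with 3 lower instead of 1. The receptor median was then 0.15 instead of 0.32 against control and 0.24 instead of 0.46 against unaffected offspring, and 2 instead of 6 members were lower in unaffected than in control offspring. Of 186 ratios of single members, 101 moved by at least 0.1 and 1 changed sign after a call, Unc5d at -0.023 against unaffected offspring. With the trend in locus span removed, 13 members were higher and 2 lower against control, beside 11.1% and 13.3% of all kept loci. Against unaffected offspring 3 were lower, beside 18.6%. The receptor median in that comparison was 0.35, with 15 of 29 receptors and 17 of 33 ligands higher, beside 19.3% of all kept loci. With a threshold of 0.5, 4 members were higher and 0 lower against control, 16 were higher against unaffected offspring, and 0 were higher and 0 lower in unaffected offspring against control. Without the filter, 2 members were lower against control, 2 lower against unaffected offspring and 2 higher in unaffected offspring against control. The shares of all loci were 11.7%, 16.1% and 7.13% in that order. With a mean FPKM of at least 5, where Efna1 is left out, 0 members were lower against control and 0 against unaffected offspring, and 3 were lower in unaffected offspring against control, as with a pseudocount of 1 (3). The shares of all loci lower were 11.7%, 21.3% and 3.63% at that filter, and 5.08% with that pseudocount. That pseudocount left 21 instead of 26 members higher against control, and 33 instead of 38 against unaffected offspring. The shares of all kept loci higher were then 9.88% and 17.9%. The cause of these changes was not tested beyond the way each alternative is built. Centring and leaving out joined loci moved no count by over 1.5 times and no ratio by 0.1.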

Other observations

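Further marker lists were read with the same rule. Of 10 kept genes of meninges and pericytes, 1 was higher and 4 lower in affected than in control offspring, beside 14.0% and 12.8% of all kept loci, with sums of 274 FPKM in control fetuses, 231 in unaffected and 179 in affected fetuses. Ptgds alone made up 167, 132 and 82.6 FPKM of these sums. The 8 kept microglial genes summed to 53.5, 56.4 and 45.8 FPKM, with 2 lower against control, and the 5 genes of the oligodendrocyte lineage to 36.3, 34.2 and 37.1 FPKM. The choroid plexus list summed to 1006, 1335 and 1119 FPKM.

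Genes of the ventral telencephalon were called higher in unaffected than in control offspring in 6 of 13 cases, beside 6.01% of all kept loci, with a median log2 ratio of 0.29. Lhx8 was at 3.23 FPKM in control fetuses, 6.78 in unaffected and 2.93 in affected fetuses, and Nkx2-1 at 3.51, 5.67 and 3.69 FPKM. Both were chosen after their values were seen.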
